A study of Neocallimastix californiae and Anaeromyces robustus with 43 samples.

Results

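The 80 transcripts described here are those of the anaerobic gut fungus Anaeromyces robustus (labelled S4) whose abundance on grass stood furthest above their abundance on every other carbon source. They were taken from the 17127 transcripts in the deposited table of A. robustus, which with the second fungus of the study, Neocallimastix californiae, makes 46776 transcripts in all. For each transcript the median TPM (transcript abundance corrected for length and expressed as a share of the library) was formed for each carbon source. The lowest of the 3 grass medians, called H here, was set against the highest of the 4 other medians, called L, as the score log2((H + 1)/(L + 1)). A transcript was eligible with H of at least 5 TPM and a score above 0, which 955 transcripts met, and the 80 highest scores were kept. Abundance itself chose these transcripts, so their difference between grass and the other carbon sources is given as a description, with no test.

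Cultures of A. robustus, sampled as whole organism, were fed 1 carbon source each: reed canary grass (3 libraries), switchgrass (3), corn stover (2), cellobiose (3), Avicel (3), maltose (3) or glucose (3). The 8 grass libraries and 12 other libraries share the same conditions otherwise: about 10 ml of Medium C at 39 °C, harvested during exponential growth once the gas pressure had reached at least 5 psi. The labels do not say whether replicates came from separate cultures, so p-values cover the spread among the libraries at hand and no more, and that spread may be technical. Polyadenylated RNA was sequenced from stranded libraries.

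Anaerobic gut fungi live in the rumen and hindgut of plant-eating mammals, where they grow into plant tissue and secrete enzymes that break down its cell walls, in part assembled in large complexes called cellulosomes. Reed canary grass, switchgrass and corn stover are grass biomass, in which cellulose is embedded in hemicellulose and lignin. Avicel is microcrystalline cellulose, cellobiose is the disaccharide that cellulose yields, maltose is the disaccharide that starch yields, and glucose is the monomer of all 3. The files do not pair the transcript identifiers with gene names, and no reference was used here, so the transcripts are described by identifier, level and pattern, with no function, position or sequence. Each identifier names a locus and its version, followed by an rpkm value of unstated origin and in some cases by the ending PRE, also unexplained. It is printed whole once and then cut to locus and version.

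The A. robustus libraries held 1946186 to 31742828 expected counts (median 15176293). The lowest total was that of maltose replicate 3, in which a single transcript took 54.5% of all TPM and 53 of the 80 transcripts had no count, while the other 19 libraries held at least 11125041. Across all transcripts maltose replicate 3 had a Spearman correlation of 0.586 to 0.595 with the other maltose libraries, and Avicel replicate 1 one of 0.837 to 0.843 with the other Avicel libraries. TMM factors, which correct library size for a few very abundant transcripts, ran from 1.21 to 1.97 in the grass libraries and from 0.178 to 1.81 in the others. TPM are not corrected in this way. Levels and orders below are in TPM unless another scale is named, and orders outside the grasses depend on it: dividing TPM by the TMM factor (called scaled TPM here) turned at least 1 pair of the 4 other medians for 38 of the 80 transcripts. Cellobiose and Avicel changed places for 13 of them, and maltose and glucose for 19.

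Together the 80 transcripts made up 2.02 ± 0.520% of all TPM on corn stover (SD, n = 2), 2.02 ± 0.0531% on switchgrass and 2.02 ± 0.129% on reed canary grass (SD, n = 3 each). On the other carbon sources they made up 0.541 ± 0.0428% on cellobiose, 0.190 ± 0.0601% on Avicel, 0.0922 ± 0.0658% on maltose and 0.173 ± 0.0767% on glucose (SD, n = 3 each). In TPM the 3 grasses were level, cellobiose came next, and Avicel, glucose and maltose lay below, with overlapping libraries. Divided by the TMM factor, the share was 1.43 ± 0.242% on corn stover (SD, n = 2), 1.09 ± 0.0957% on switchgrass and 1.44 ± 0.162% on reed canary grass (SD, n = 3 each). It was then 0.347 ± 0.0958% on cellobiose, 0.344 ± 0.0968% on Avicel, 0.182 ± 0.0823% on maltose and 0.202 ± 0.118% on glucose (SD, n = 3 each). On this scale too every grass library, at 1.00% or above, was higher than every other library, at 0.458% or below, but cellobiose was no longer above Avicel and switchgrass lay below the other grasses. The median transcript of the 80 had a median of 61.4 TPM on reed canary grass, 66.1 TPM on switchgrass, 60.8 TPM on corn stover, 11.9 TPM on cellobiose, 3.11 TPM on Avicel, 0.58 TPM on maltose and 1.66 TPM on glucose. A lower share can reflect less of these RNAs or more of all other RNA, which cannot be told apart in relative units.

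**Figure D1:**
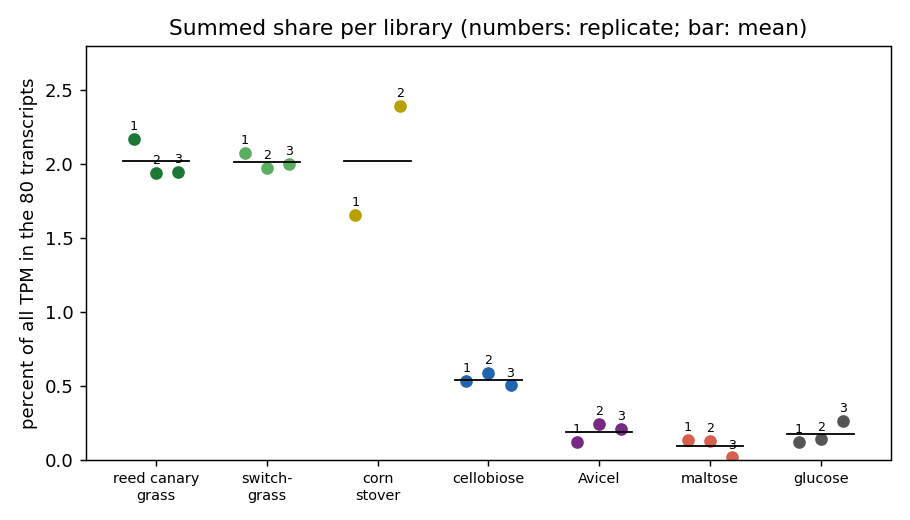
Percent of all TPM held by the 80 transcripts (y axis) in each library, grouped by carbon source (x axis), with 1 point per library, its replicate number above it and a bar at the group mean. The grass libraries lie between 1.66 and 2.39%, cellobiose between 0.503 and 0.588%, and the other libraries at 0.261% or below.

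For 70 of the 80 transcripts every one of the 8 grass libraries lay above every one of the 12 other libraries in TPM. The background over all 17127 transcripts was 5.02%, and among the 875 eligible transcripts below the 80 highest scores 383 did so. The rule used medians of the same libraries, so nothing is read from this count beyond how far the single libraries follow the medians. In 9 of the 10 transcripts with overlap the highest other library was on cellobiose. This is not particular to them. By medians in TPM, cellobiose was the highest of the 4 for 81.9% of all transcripts with a median above 0. It was so for 85.8% of the eligible transcripts of lower score. In CPM (counts per 1000000) after TMM scaling the lowest grass median stayed above the highest other median for 77 of the 80, and in TPM divided by the TMM factor for 78. The 3 exceptions in CPM were Locus887v1rpkm105.67, at 58.6 CPM on its lowest grass against 68.2 CPM on maltose, Locus1431v1rpkm52.42, at 10.5 against 11.9 CPM on Avicel, and Locus8293v1rpkm1.82, at 0.451 against 0.721 CPM on Avicel. Locus887v1 and Locus8293v1 were also the exceptions in scaled TPM. All 3 are named because of these values, and the grass peak of these 3 transcripts depends on the scale.

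**Figure D2:**
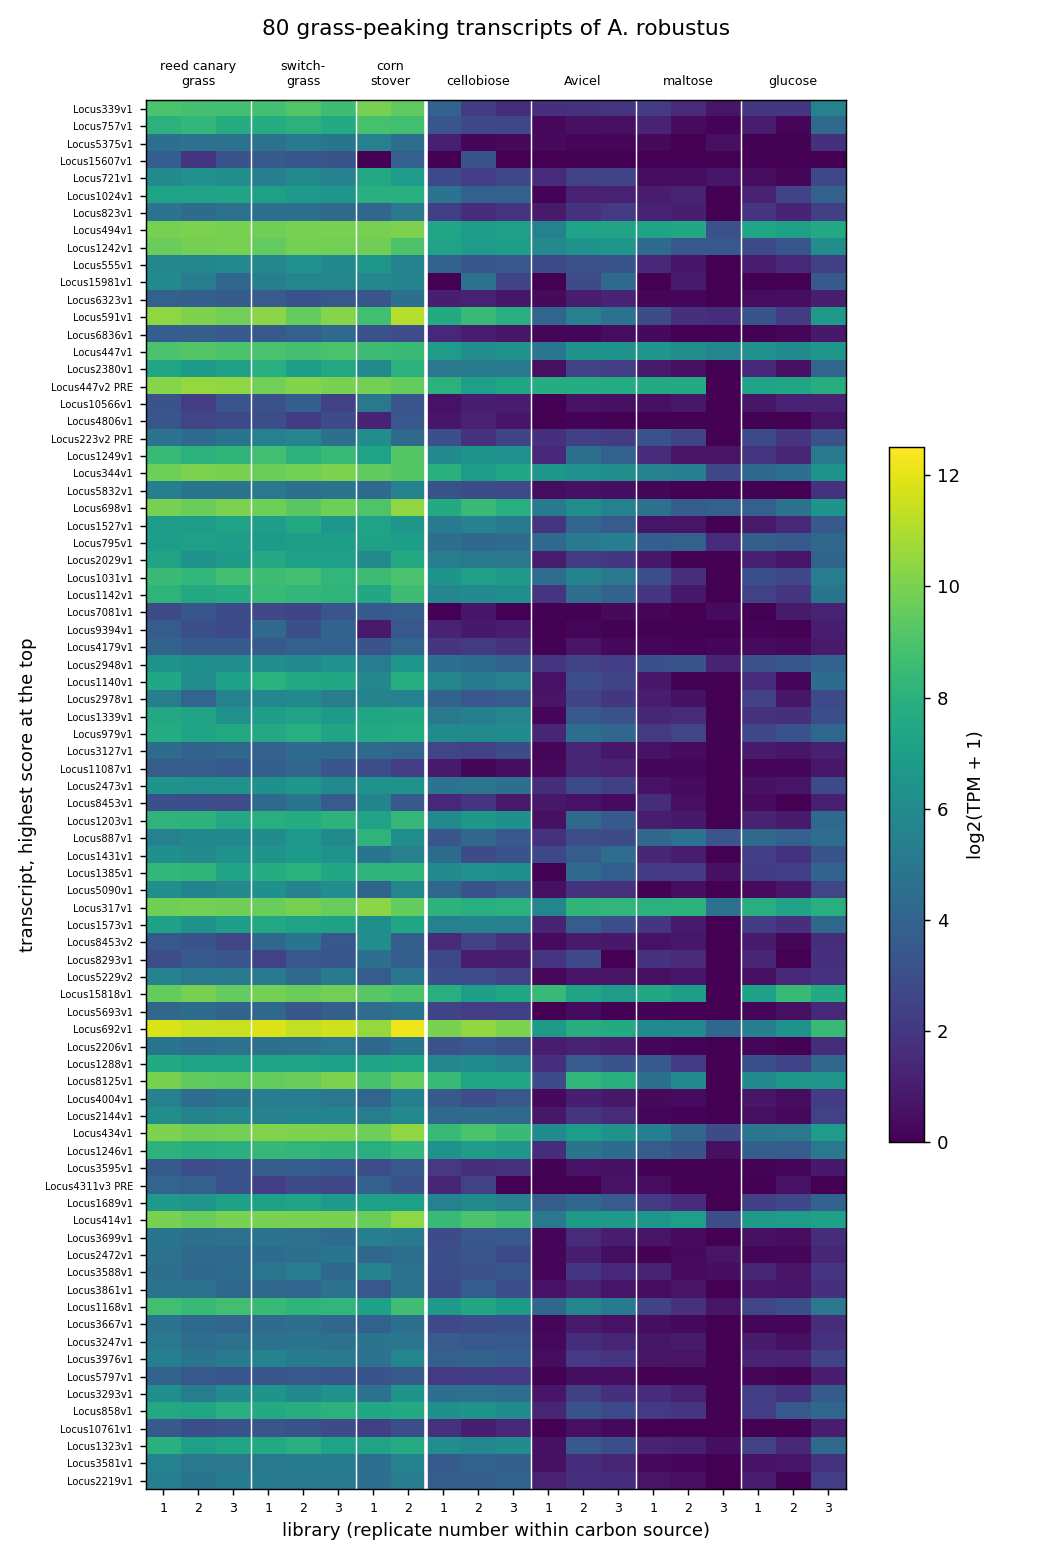
Abundance of the 80 transcripts (rows, highest score at the top) in the 20 libraries (columns, by carbon source and replicate number), in log2(TPM + 1) by colour. The 8 grass columns at the left are brighter than the rest in nearly every row, cellobiose is intermediate in many rows, and glucose replicate 3 is brighter than glucose replicates 1 and 2.

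The scores ran from 6.62 to 1.26 with a median of 1.54, and fell off fast: 3 transcripts scored above 3, 17 above 2, and 37 below 1.5. The highest score belonged to Locus339v1rpkm435.13. It reached 504, 454 and 415 TPM on reed canary grass, 438, 574 and 387 TPM on switchgrass and 963 and 707 TPM on corn stover. Against that it had 14.5, 3.46 and 1.98 TPM on cellobiose, 2.21, 2.57 and 2.87 TPM on Avicel, 3.68, 1.77 and 0.65 TPM on maltose and 2.9, 2.88 and 43.5 TPM on glucose. Every grass library was at least 387 TPM and 10 of the 12 other libraries were below 4 TPM, the exceptions being cellobiose replicate 1 and glucose replicate 3. Its medians on the 4 other carbon sources lay close together, between 1.77 and 3.46 TPM.

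Locus757v1rpkm130.85 had the second score, 5.00. It stood at 262, 313 and 212 TPM on reed canary grass, 211, 258 and 197 TPM on switchgrass and 465 and 419.6 TPM on corn stover. The other libraries gave 9.05, 5.61 and 5.28 TPM on cellobiose, 0.21, 0.5 and 0.43 TPM on Avicel, 1.36, 0.3 and 0.08 TPM on maltose and 0.99, 0.17 and 19 TPM on glucose. Both corn stover libraries were above all other grass libraries, and glucose replicate 3 was again the highest library outside the grasses. The third score, 4.42, was that of Locus5375v1rpkm5.04, at a lower level. It had 22.8, 26.5 and 25.1 TPM on reed canary grass, 25, 36.2 and 28.3 TPM on switchgrass and 42.2 and 21.6 TPM on corn stover, against 1.13, 0.17 and 0.2 TPM on cellobiose, 0.23, 0.13 and 0.18 TPM on Avicel, 0.22, 0 and 0.45 TPM on maltose and 0.04, 0.05 and 2.2 TPM on glucose. Outside the grasses it exceeded 1 TPM only in cellobiose replicate 1 and glucose replicate 3, the same 2 libraries that stood out for Locus339v1.

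The fourth score, 2.95, rests on few reads. Locus15607v1rpkm0.07 had 26 counts over the 8 grass libraries and 3 counts over the 12 others. It had 0 and 13.4 TPM on corn stover, 10.3, 9.1 and 8.1 TPM on switchgrass and 12.2, 2.73 and 8.05 TPM on reed canary grass, against 8.34 TPM in cellobiose replicate 2 and 0 in the other 11. A single corn stover library at 0 and a single cellobiose library level with the grasses make the groups overlap, and the transcript was too low for the count test.

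Locus721v1 and Locus1024v1 followed with scores of 2.88 and 2.88 and, like Locus757v1, were highest on corn stover. Locus721v1rpkm140.98 had 188 and 121 TPM on corn stover, 39.5, 63 and 45.7 TPM on switchgrass and 62.2, 78.5 and 72.3 TPM on reed canary grass, against 6.02, 3.89 and 5.34 TPM on cellobiose, 1.91, 4.6 and 4.84 TPM on Avicel, 0.35, 0.33 and 0.63 TPM on maltose and 0.34, 0.12 and 5.6 TPM on glucose. Locus1024v1rpkm86.45 had 242 and 225 TPM on corn stover, 136, 107 and 92.7 TPM on switchgrass and 151, 148 and 156 TPM on reed canary grass, against 26.2, 13.7 and 13.4 TPM on cellobiose, 0.08, 1.24 and 1.22 TPM on Avicel, 1.01, 1.4 and 0 TPM on maltose and 1.19, 4.73 and 13 TPM on glucose. In both, corn stover, switchgrass and reed canary grass did not overlap with any other library, and maltose lay at or below 1.4 TPM. They part on Avicel, where Locus721v1 was close to its cellobiose level and Locus1024v1 was about as low as on maltose. In scaled TPM the Avicel median of Locus721v1, 6.26 TPM, lay above its cellobiose median of 3.08 TPM.

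Locus494v1rpkm240.95 was the steadiest of the 80 across the grasses, with a coefficient of variation of 4.73% over the 8 grass libraries. It had 964, 1041 and 1020.3 TPM on reed canary grass, 896, 1005 and 1007 TPM on switchgrass and 987 and 1035 TPM on corn stover. On the other carbon sources it had 166, 118 and 134 TPM on cellobiose, 44.3, 149 and 155 TPM on Avicel, 151, 176 and 7.57 TPM on maltose and 164, 135 and 187 TPM on glucose. Apart from Avicel replicate 1 and maltose replicate 3, the other libraries kept to 118 to 187 TPM, so that this transcript had a near-constant TPM on grass and a lower near-constant TPM elsewhere. That shape is lost in scaled TPM, where its medians were 92 TPM on cellobiose, 193 TPM on Avicel, 279 TPM on maltose and 156 TPM on glucose, against 509 to 738 TPM on the grasses. Locus823v1rpkm117.02, with a score of 2.68, was much less abundant and also even in TPM, with grass medians of 24.0 TPM on reed canary grass, 22.7 TPM on switchgrass and 23.4 TPM on corn stover against medians of 1.09 to 2.70 TPM elsewhere. In scaled TPM its other medians were 1.64 to 3.20 TPM.

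Locus1242v1rpkm65.86 and Locus555v1rpkm208.45, the second scoring 2.38 and the first just above it, had cellobiose and Avicel medians between those of the grasses and those of maltose and glucose. Locus1242v1 had 808, 955 and 978 TPM on reed canary grass, 727, 961 and 899.6 TPM on switchgrass and 871 and 512 TPM on corn stover. It had 147, 121 and 122 TPM on cellobiose, 58.2, 82.2 and 94.9 TPM on Avicel, 19.5, 9.49 and 10.0 TPM on maltose and 5.77, 9.31 and 70.4 TPM on glucose. In TPM its cellobiose libraries all lay above its Avicel libraries, and glucose replicate 3 alone of the glucose and maltose libraries lay at the Avicel level. After TMM scaling the order of the first pair was the reverse, again without overlap: it had 259, 94.7 and 112 CPM on Avicel and 64.9, 80.1 and 55.5 CPM on cellobiose. Locus555v1 had grass medians of 54.1 TPM on reed canary grass, 55.5 TPM on switchgrass and 70.7 TPM on corn stover, with 9.56 TPM on cellobiose, 7.46 TPM on Avicel, 0.69 TPM on maltose and 1.60 TPM on glucose. Here too Avicel stood above cellobiose after TMM scaling, with 25.6, 8.08 and 9.52 CPM on Avicel and 5.85, 5.65 and 4.10 CPM on cellobiose, so no order between these 2 carbon sources is read for either transcript.

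Locus15981v1rpkm0.00 and Locus6323v1rpkm3.51 complete the 12 highest scores. Locus15981v1 had 61.2, 36.5 and 16.7 TPM on reed canary grass, 39.1, 52.2 and 51.5 TPM on switchgrass and 54.5 and 48 TPM on corn stover, against 0, 24.9 and 4.76 TPM on cellobiose, 0, 6.39 and 19.3 TPM on Avicel, 0, 0.85 and 0 TPM on maltose and 0, 0 and 10.5 TPM on glucose. Its groups overlap, since cellobiose replicate 2 and Avicel replicate 3 lay above reed canary grass replicate 3. Locus6323v1 was lower and did not overlap, with grass libraries of 7.89 to 23.7 TPM against at most 1.38 TPM elsewhere.

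**Figure D3:**
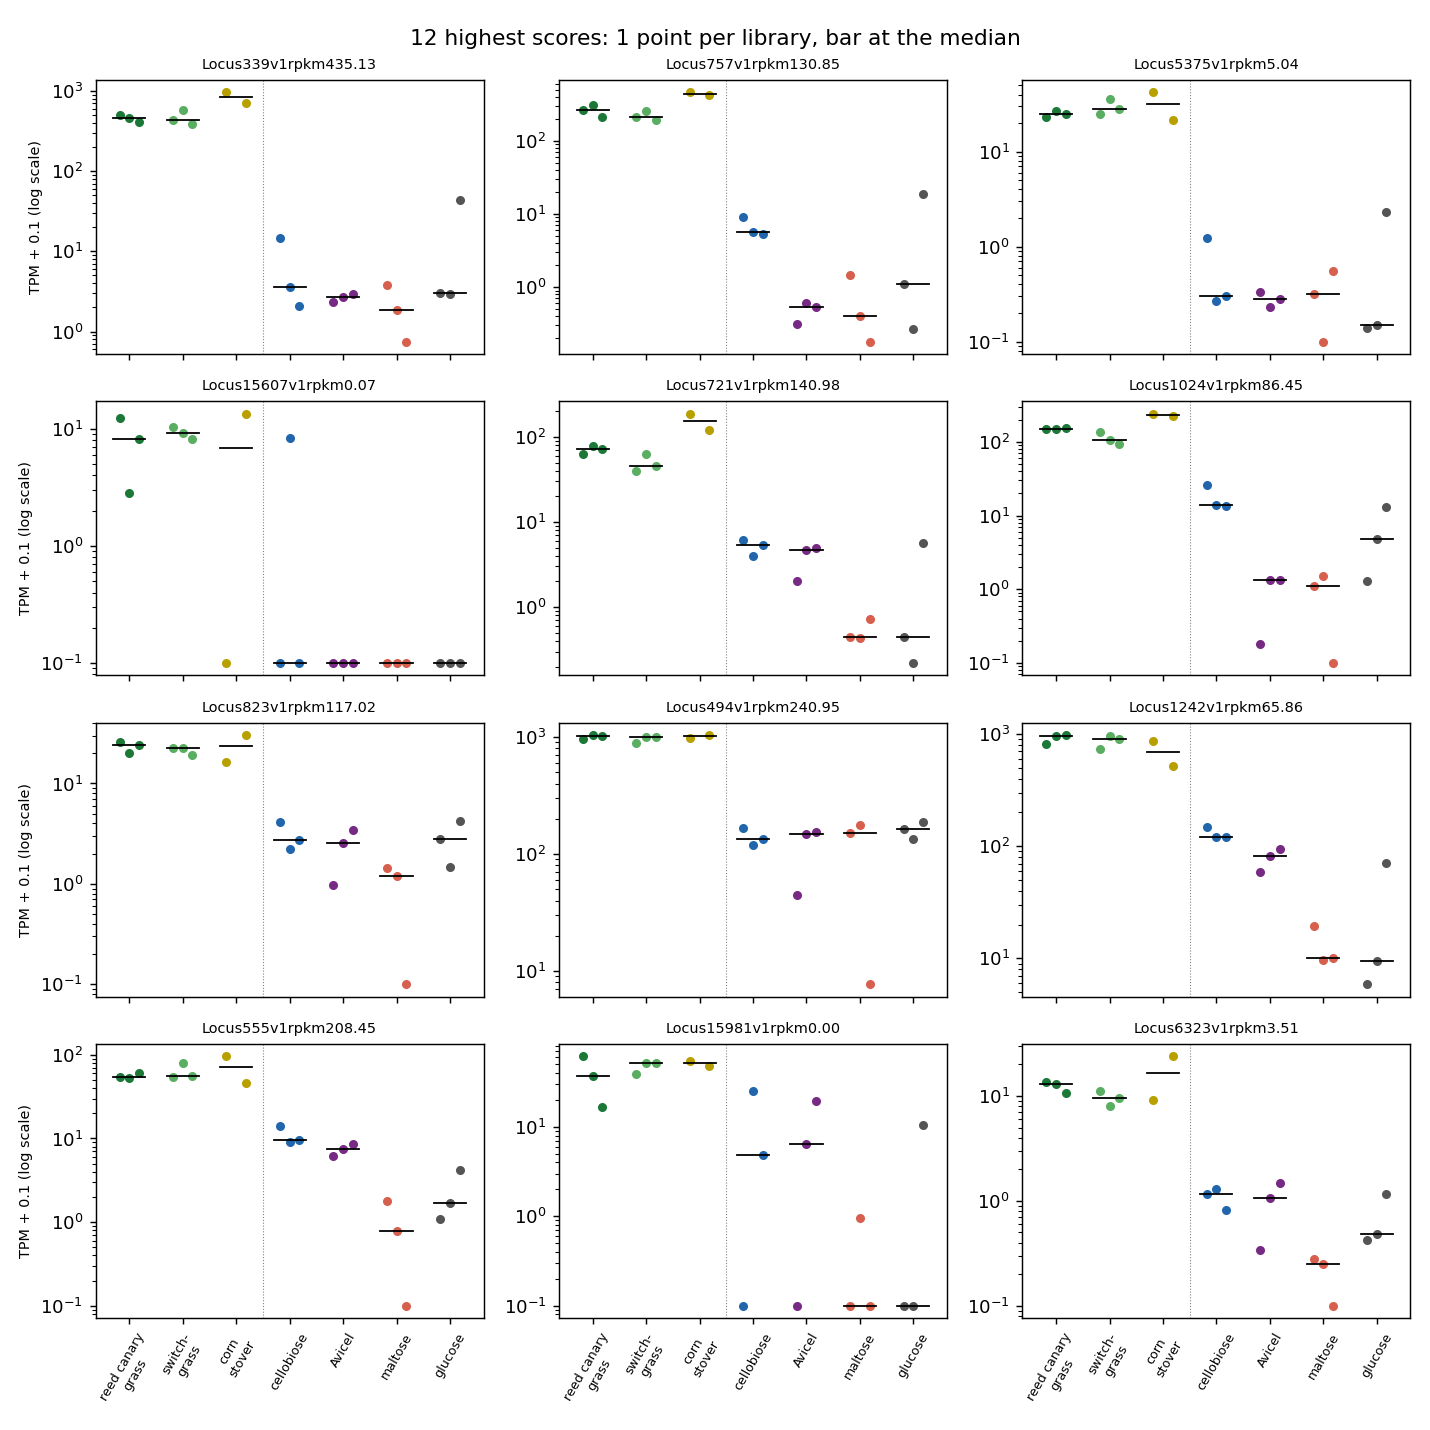
TPM + 0.1 on a log axis (y) of the 12 transcripts with the highest scores, by carbon source (x), with 1 point per library and a bar at the median. Grass libraries are at the left of each panel, and 10 of the 12 panels show no overlap with the libraries at the right, Locus15607v1 and Locus15981v1 being the exceptions.

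The next 8 scores, from 2.17 to 1.93, belonged to transcripts that ranged widely in abundance. Locus591v1rpkm185.66 was highly abundant and uneven within the grasses, with 1387, 1081 and 921 TPM on reed canary grass, 1284, 757 and 1216 TPM on switchgrass and 414 and 2212 TPM on corn stover. Against this it had 197, 345 and 239 TPM on cellobiose, 16.1, 42.7 and 25.4 TPM on Avicel, 6.54, 2.31 and 2.12 TPM on maltose and 8.59, 3.56 and 108 TPM on glucose. Its 2 corn stover libraries were the lowest and the highest of the 8 grass libraries, and its levels outside the grasses ran from 2.12 to 345 TPM. Locus2380v1rpkm22.56 had the same order of medians outside the grasses in TPM, at a lower level. Its medians were 137 TPM on reed canary grass, 184 TPM on switchgrass and 163 TPM on corn stover. They were 31.0 TPM on cellobiose, 3.81 TPM on Avicel, 0.42 TPM on maltose and 1.76 TPM on glucose. In scaled TPM maltose lay above glucose for Locus591v1, at 11.9 and 8.19 TPM. It lay below glucose for Locus2380v1, at 0.67 and 1.68 TPM. Locus447v1rpkm278.79 and Locus447v2rpkm17.91_PRE are 2 versions of 1 locus and had an even, lower TPM outside the grasses. The first had medians of 498 TPM on reed canary grass, 474 TPM on switchgrass and 375 TPM on corn stover against 72.1 to 84.8 TPM elsewhere, and the second 1368, 1016 and 854 TPM in the same order against 164 to 211 TPM. In scaled TPM their other medians were less even, at 55.6 to 171 TPM and 101 to 315 TPM. Locus6836v1rpkm2.96, Locus10566v1rpkm0.97, Locus4806v1rpkm6.39 and Locus223v2rpkm11.78_PRE were low, with lowest grass medians of 7.49, 7.63, 5.47 and 26.1 TPM and highest other medians of 0.92, 1.26, 0.7 and 6.12 TPM.

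The lowest grass median H ran from 5.18 to 2783 TPM over the 80 transcripts, with a median of 51.3 TPM. It was at least 500 TPM for 12 of them, at least 100 TPM for 35 and under 10 TPM for 15. The 10 most abundant held 58.8% of the TPM of the 80 on grass, and Locus692v1rpkm148.78 alone held 15.2%. These shares are in TPM, which corrects for length, and Locus692v1 had a short effective length. It had 32705 counts over the grass libraries, where the most for any of the 80 was 509143. Some others with H of at least 500 TPM were short too and are named with the effective lengths below. Locus692v1 had 3574, 2773 and 2783 TPM on reed canary grass, 3679, 2655 and 3048 TPM on switchgrass and 1448 and 4635 TPM on corn stover. On the other carbon sources it had 1015, 1404 and 1033 TPM on cellobiose, 112, 224 and 197 TPM on Avicel, 62.6, 59.4 and 16.8 TPM on maltose and 41, 85.7 and 353 TPM on glucose. The margin over cellobiose is narrow, since corn stover replicate 1 exceeded cellobiose replicate 2 by a small amount, while maltose and glucose lay far below. Locus414v1rpkm311.96 and Locus434v1rpkm289.33 also had cellobiose next after the grasses, with H of 1006 and 934 TPM and cellobiose medians of 406 and 367 TPM. With Locus591v1 and Locus494v1 they are the 5 transcripts with the highest H.

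Outside the grasses 2 shapes were counted. In 57 the cellobiose median was at least 2 times each of the Avicel, maltose and glucose medians, as in Locus591v1, Locus692v1, Locus414v1 and Locus434v1. This is not particular to them: it held for 56% of all 13146 transcripts with a median above 0 on any of the 4 carbon sources, and for 68.2% of the 875 eligible transcripts of lower score. It also depends on scaling, since 40 of the 80 met it in TPM divided by the TMM factor. In these 57 the lowest grass median was 2.42 to 37.6 times the cellobiose median, with a median ratio of 2.99. In 63 of the 80 the highest other median was on cellobiose, against 81.9% of all transcripts with a median above 0. It was on Avicel for 8, on glucose for 7 and on maltose for 1, against 5.80%, 9.84% and 2.43% of all transcripts, and for Locus15607v1 all 4 were 0. In scaled TPM it was on cellobiose for 54 of the 80, on Avicel for 14, on maltose for 8 and on glucose for 3, against 52.5%, 17.4%, 10.7% and 19.4% of all transcripts, so that glucose and maltose change places.

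In 8 of the 80 the highest of the 4 other medians was at most 2.5 times the lowest, a share near the 8.18% of all transcripts; it was 15.2% in the eligible transcripts of lower score. In scaled TPM 5 of the 80 met this, against 21.95% of all transcripts, and only 2 of the 8 were among them. The 8 in TPM were Locus339v1, Locus823v1, Locus494v1, Locus447v1, Locus447v2, Locus223v2, Locus317v1rpkm479.73 and Locus15818v1rpkm0.00. Locus317v1 had 870.1, 948 and 881 TPM on reed canary grass, 803, 987 and 781 TPM on switchgrass and 1262 and 755 TPM on corn stover, against 269, 227 and 255 TPM on cellobiose, 51.8, 289.6 and 296 TPM on Avicel, 253, 269.6 and 24.2 TPM on maltose and 234, 147 and 237 TPM on glucose. As for Locus494v1, Avicel replicate 1 and maltose replicate 3 were the low libraries in TPM. The remaining 15 of the 80, more than the 8, had neither shape.

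The rule took the lowest grass and so set no order among the 3 grasses. It did favour transcripts high on all 3, so some evenness among the grasses is built into the choice. The highest grass median was on corn stover for 32 of the 80, on switchgrass for 31 and on reed canary grass for 17. In scaled TPM these counts were 41, 4 and 35, so the place of switchgrass depends on the scale. The highest grass median was under 1.5 times the lowest for 52 of them and more than 2 times for 13, and the median ratio was 1.33 (range 1.02 to 4.90). The spread of TPM over single grass libraries was wider than in the eligible transcripts of lower score, with a median coefficient of variation of 26.5% against 19.6%, a description with no test. Corn stover replicate 1 was the lowest of the 8 grass libraries for 36 of the 80 and the highest for 16, and replicate 2 was the lowest for 11 and the highest for 21. Replicate 2 was above replicate 1 for 50 of the 80 (62.5%), close to the 63.3% of all transcripts with corn stover TPM.

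No transcript of the 80 was called different between 2 grasses. Of the 80, 79 had enough counts for the test, edgeR's quasi-likelihood test on all 10316 tested transcripts with Benjamini-Hochberg adjustment and a threshold of 0.05 on the adjusted p. Between switchgrass and reed canary grass 0 of 79 were called, as were 0% of all tested transcripts. An unadjusted p under 0.05 was found for 1 of the 79 and for 751 of all 10316. Between corn stover and reed canary grass 0 of 79 were called, again with 0% of all, and 5 had an unadjusted p under 0.05, beside 143 of all 10316. Between corn stover and switchgrass 0 of 79 were called, against 0.00969% of all, and 8 had an unadjusted p under 0.05, beside 627 of all 10316. DESeq2 and limma on log2(TPM + 1) also called 0 of these transcripts in each of the 3 comparisons. A fit to the compared groups alone called 2 lower on switchgrass than on reed canary grass, and 7 between corn stover and switchgrass, 6 higher and 1 lower on corn stover. Of all transcripts tested in that fit, 1.63% were lower and 2.09% higher on switchgrass than on reed canary grass. For corn stover against switchgrass 1.135% were higher and 1.73% lower.

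The median log2 fold change of the 79 was 0.41 for corn stover against switchgrass and -0.36 for switchgrass against reed canary grass, with medians over all tested transcripts of -0.02 and 0.03. With library size as the scaling, without TMM, these became 0.01 and 0.03 for the 79, and -0.43 and 0.41 for all transcripts. Both medians of the 79 thus depend on the scaling, and only the distance from all transcripts remains. That distance is not particular to the 79. With TMM the 873 tested eligible transcripts of lower score had medians of 0.31 and -0.31 in these 2 comparisons. For corn stover against reed canary grass the median of the 79 was 0.06, with a median over all tested transcripts of -0.00264. The widest gap between grasses was that of Locus8453v2rpkm0.31, with 69.6 and 12.8 TPM on corn stover, 17.6, 27.8 and 9.51 TPM on switchgrass and 9.73, 8.4 and 5.04 TPM on reed canary grass. Its sister version Locus8453v1rpkm1.73 had 48.2 and 10.4 TPM on corn stover, 18.2, 28.5 and 10.9 TPM on switchgrass and 7.37, 6.92 and 6.68 TPM on reed canary grass. In both, corn stover replicate 1 stood far above replicate 2, which lay near the lowest switchgrass library. The log2 fold change of Locus8453v2 for corn stover against reed canary grass was 2.54 ± 0.67 (SE), with an adjusted p of 1 in edgeR's quasi-likelihood test.

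Among the carbon sources below the grasses the rule set no order, although it took the highest of them and so favoured low levels on all 4. Cellobiose, Avicel and maltose were each tested against glucose. The 3 comparisons share the glucose libraries. On cellobiose 19 of the 79 tested transcripts rose and 2 fell relative to glucose (24.1% and 2.53%), in edgeR's quasi-likelihood test, against 16.1% and 7.3% of all tested transcripts. The median log2 fold change was 1.22 for the 79 and 0.16 for all tested transcripts. Of the 873 tested eligible transcripts of lower score, 39.7% rose and 1.72% fell, with a median of 1.00. A rise on cellobiose is thus not particular to the 79.

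The largest called rise on cellobiose was that of Locus2472v1rpkm20.89, which had 7.24, 8.98 and 5.98 TPM on cellobiose against 0.11, 0.14 and 1.57 TPM on glucose. The groups did not overlap, and its log2 fold change was 2.40 ± 0.74 (SE), with an adjusted p of 0.0249 in edgeR's quasi-likelihood test. The adjusted p of this edgeR test was 0.0859 without cellobiose replicate 2, 0.111 without glucose replicate 1 and 0.0746 when the second glucose library was dropped. Fitting just the cellobiose and glucose libraries gave an edgeR adjusted p of 0.086. The largest called fall was that of Locus887v1, with 9.09, 16.3 and 10.2 TPM on cellobiose against 18.8, 13.1 and 21.5 TPM on glucose. These TPM values overlap, and in CPM after TMM scaling, without overlap, it averaged 11.6 ± 6.62 on cellobiose and 35.7 ± 12.9 on glucose (SD, n = 3 each). Its log2 fold change was -1.62 ± 0.55 (SE), with an adjusted p of 0.0359 in edgeR's quasi-likelihood test. The call was lost without cellobiose replicate 1 or 3 or glucose replicate 1 or 3 (edgeR adjusted p of 0.068 to 0.141), with DESeq2's size factors (0.0784), with library size alone (0.289), with the replicate block (0.057), with DESeq2 (0.064) and with limma (0.463). Locus494v1 was the other that fell, named after its values were seen, with 291 ± 33.5 CPM on cellobiose and 747 ± 224 CPM on glucose (SD, n = 3 each). Its TPM values given above overlap between cellobiose and glucose, and the fall of its CPM comes with TMM factors of 1.28 to 1.81 in the cellobiose libraries and 0.776 to 1.05 in the glucose libraries. The call of Locus494v1 was lost without cellobiose replicate 3 (edgeR adjusted p of 0.0521) or glucose replicate 3 (0.0597), with library size alone (0.473) and with limma (0.848). With library size as the scaling, without TMM, 44 of the 79 rose on cellobiose and 0 fell, against 27.5% and 1.76% of all tested transcripts, while the median of all tested transcripts moved to 1.00 on the log2 scale.

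On Avicel 8 of the 79 rose and 3 fell relative to glucose in edgeR's quasi-likelihood test, against 10.8% and 14.3% of all tested transcripts. The median log2 fold change was 0.17 for the 79 and -0.23 for all. Of the 873 tested eligible transcripts of lower score, 14.3% rose and 6.19% fell, with a median of 0.27. Locus555v1 had the largest called rise, with 6.1, 7.46 and 8.56 TPM on Avicel against 0.98, 1.6 and 4.1 TPM on glucose. Its libraries did not overlap, and its log2 fold change was 2.53 ± 0.59 (SE), with an adjusted p of 0.0038 in edgeR's quasi-likelihood test. It kept its call with each library left out, and lost it with library size alone (edgeR adjusted p of 0.0633), with only these 2 groups fitted (0.067) and with limma on log2(TPM + 1) (0.0753). Locus795v1rpkm121.13 had 18.1, 35.4 and 39.7 TPM on Avicel against 12.9, 10.7 and 16.9 TPM on glucose, and in CPM 198 ± 76.3 on Avicel and 54.4 ± 21.0 on glucose (SD, n = 3 each), with a log2 fold change of 1.87 ± 0.37 (SE) and an adjusted p of 0.000948 in edgeR's quasi-likelihood test. Locus795v1 was named here after its values were seen. It kept its call with each library left out (edgeR adjusted p of 0.000379 to 0.00991) and lost it with library size alone (0.12) and with limma (0.304). The largest called fall was that of Locus757v1, the transcript with the second score. Its Avicel and glucose values are given above: glucose replicate 3 had 19 TPM and the other glucose libraries 0.99 and 0.17 TPM, so that the 2 groups overlap. Its log2 fold change was -3.72 ± 1.16 (SE), with an adjusted p of 0.0279 in edgeR's quasi-likelihood test, and without glucose replicate 3 it was 0.20 with an adjusted p of 0.865. Without any 1 of the 3 Avicel libraries its edgeR adjusted p was 0.0725 to 0.0889, and with a library left out it ran from 0.00116 to 0.865 in all. It was also above 0.05 with no filter on low counts (0.0584), with the replicate block (0.0929), with only these 2 groups fitted (0.164) and with limma (0.245). The other called falls, named after their values were seen, were those of Locus1024v1 and Locus5693v1. Locus1024v1 averaged 2.52 ± 1.47 CPM on Avicel and 18.4 ± 19.6 CPM on glucose (SD, n = 3 each), with a log2 fold change of -2.82 ± 0.68 (SE) and an adjusted p of 0.00473 in edgeR's quasi-likelihood test. Locus5693v1 averaged 0.187 ± 0.325 CPM on Avicel and 1.56 ± 1.90 CPM on glucose (SD, n = 3 each), with a log2 fold change of -2.73 ± 0.94 (SE) and an adjusted p of 0.0382 in the same test. Both overlapped between the groups. Without glucose replicate 3 both lost the call, with a log2 fold change of -1.50 and an edgeR adjusted p of 0.0748 for Locus1024v1, and -0.95 and 0.481 for Locus5693v1. With a library left out the adjusted p ran from 0.000447 to 0.0748 for Locus1024v1 and from 0.00821 to 0.481 for Locus5693v1. Locus1024v1 also lost the call with only these 2 groups fitted (0.103) and with limma (0.0914). Locus5693v1 also lost it without Avicel replicate 1 (0.11) or 3 (0.131) or either corn stover library (0.0522 and 0.0523), with no filter (0.0578), with the replicate block (0.064) and with limma (0.323). Scaled by library size without TMM, 0 of the 79 rose on Avicel and 5 fell, against 3.52% and 15.6% of all tested transcripts, while the median of all tested transcripts moved to -0.79 on the log2 scale.

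On maltose 0 of the 79 were called against glucose by edgeR's quasi-likelihood test, as against 0.00969% of all tested transcripts lower and 0% higher. In that test 29 of the 79 had an unadjusted p under 0.05, beside 1912 of all 10316 and 198 of the 873 eligible transcripts of lower score. The median log2 fold change was -1.16 for the 79 and -0.46 for all tested transcripts. DESeq2 called 15 of the 80, of which 3 rose and 12 fell, against 1.32% and 3.13% of the 15532 transcripts in its fit. Limma on log2(TPM + 1) called 0, against 0% higher and 0.795% lower of all tested transcripts. Maltose replicate 3, with 53 of the 80 transcripts at no count, is 1 of the 3 maltose libraries behind these values.

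**Figure D4:**
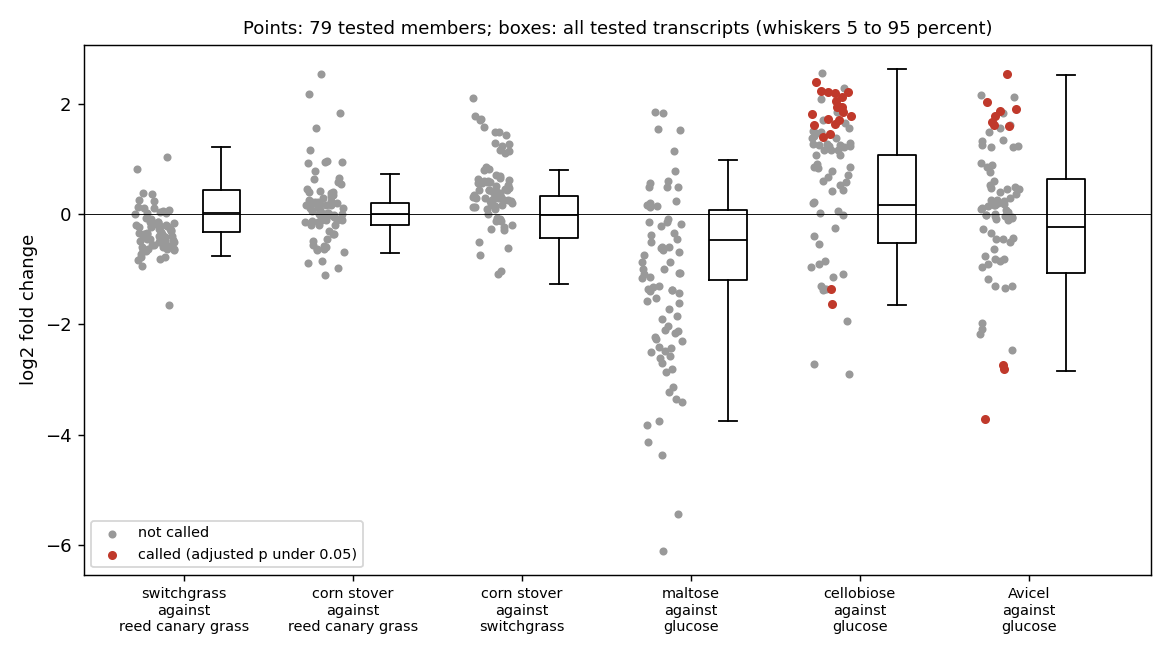
Log2 fold change (y axis) in the 6 tested comparisons (x axis), with 1 point for each of the 79 tested transcripts and, at its right, a box for all 10316 tested transcripts (box at the quartiles, line at the median, whiskers at 5 and 95 percent). Called transcripts appear only in the cellobiose and Avicel comparisons, 21 and 11 of the 79, and the points of the maltose comparison reach furthest down, to -6.10.

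A single glucose library moved with these comparisons. Glucose replicate 3 was the highest of the 3 glucose libraries for 75 of the 80 transcripts, against 24.3% of the 12840 transcripts with any glucose TPM and 56.8% of the 875 eligible transcripts of lower score. In CPM after TMM scaling it was the highest for 77 of the 80, against 41.8% of all transcripts. The median of the 80 was 1.33 TPM in glucose replicate 1, 1.05 TPM in replicate 2 and 7.39 TPM in replicate 3. With 1 TPM added to each value, replicate 3 was 0.794 to 15.4 times the mean of the other 2, with a median of 2.29, and was more than 2 times that mean for 49 of the 80. Among the abundant transcripts Locus591v1, Locus698v1 and Locus344v1 are examples, the last 2 chosen after their values were seen: Locus698v1rpkm147.88 had 13.4, 25.1 and 87.6 TPM and Locus344v1rpkm428.21 16.9, 22.4 and 82 TPM in glucose replicates 1, 2 and 3. The summed share of the 80 in glucose replicate 3 was 0.261% of TPM, against 0.503% in the lowest cellobiose library. Divided by the TMM factor the order turns, with 0.336% in glucose replicate 3 and 0.294% and 0.290% in cellobiose replicates 1 and 3. Its part in the results was not tested beyond leaving it out.

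Without glucose replicate 3, 53 of the tested transcripts rose and 0 fell on cellobiose relative to glucose, where 17.9% of all tested transcripts rose and 5.39% fell. On Avicel 36 rose and 0 fell, where 10.1% of all tested transcripts rose and 10.3% fell. The median log2 fold changes were then 2.57 on cellobiose, 1.84 on Avicel and 0.24 on maltose, with medians over all tested transcripts of 0.19, -0.06 and -0.30. The maltose median thus changed sign without this library, with 0 called on maltose as before. Leaving out some other libraries lowered the counts: on cellobiose 1 rose and 2 fell without glucose replicate 1, against 6.86% and 4.32% of all tested transcripts. Without glucose replicate 2, 4 rose and 4 fell there, against 13.2% and 8.49%, and without cellobiose replicate 2, 3 rose and 3 fell, against 12.3% and 5.12%. On Avicel 3 rose and 4 fell without glucose replicate 1, against 6.06% and 8.79% of all, and likewise without glucose replicate 2, against 11.03% and 16.99%. Without Avicel replicate 1, 5 rose and 2 fell on Avicel, against 9.34% and 13.0% of all. On maltose 10 fell without glucose replicate 2, against 4.84% of all tested transcripts.

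**Figure D5:**
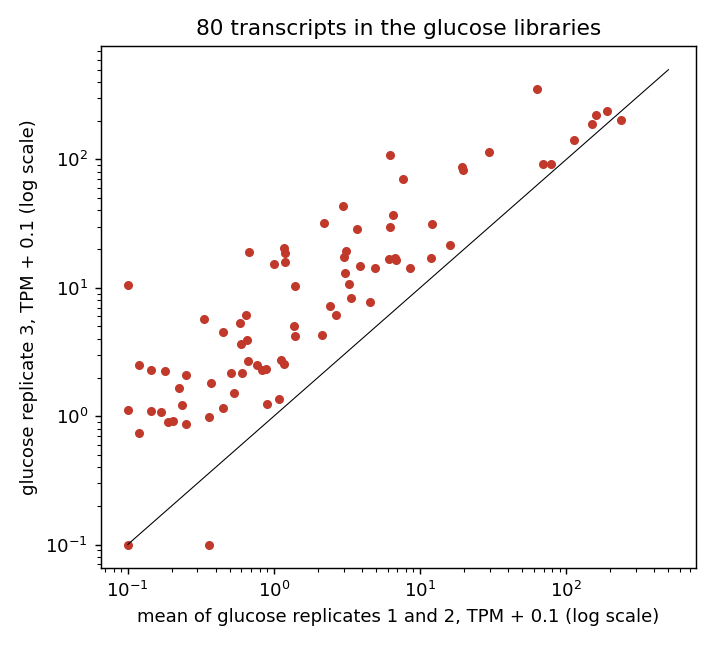
TPM + 0.1 of the 80 transcripts in glucose replicate 3 (y axis, log scale) against the mean of glucose replicates 1 and 2 (x axis, log scale), with 1 point per transcript and the line of equal values. Most points lie above the line, and replicate 3 is the highest of the 3 libraries for 75 of the 80.

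The values at the edge of the choice differ little from those outside. The 3 lowest scores kept were those of Locus1323v1rpkm59.77, Locus3581v1rpkm11.26 and Locus2219v1rpkm25.47, at 1.26 each, with H of 163, 31.6 and 30.2 TPM and L of 67.3, 12.6 and 12.1 TPM. Just outside were Locus1742v2rpkm10.12, Locus4140v1rpkm8.62 and Locus2826v1rpkm16.98, with scores of 1.26, 1.26 and 1.25, H of 110.1, 14.3 and 58.2 TPM and L of 45.5, 5.42 and 23.8 TPM. The boundary is therefore a rank and not a gap in the values. Applied to TPM divided by the TMM factor the same rule would keep 50 of the 80, and applied to TMM-scaled CPM 46.

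The 80 transcripts come from 78 loci, and 16 of them have another version of their locus in the table, against 11.6% of all transcripts. Both versions are among the 80 for Locus447 and Locus8453. Versions of a locus share reads, which RSEM divides between them, so the level of a single version is uncertain. The counts were whole numbers in every library for 57.5% of the 80 and 80.3% of all transcripts with counts (tolerance 1e-09). Counts that are not whole also occur in transcripts with 1 version in the table. They made up 90% of the values of Locus339v1, the highest score, and 60% of those of Locus1024v1. The level of such transcripts may therefore be uncertain as well. In several loci the 2 versions have different patterns. Locus223v2 had its peak on the grasses, with medians of 26.1 TPM on reed canary grass, 42.2 TPM on switchgrass and 44.1 TPM on corn stover, while its sister version was far more abundant and highest on cellobiose, with 240 to 260 TPM on the grasses and 768 TPM on cellobiose. Locus317v2 ran against Locus317v1, with 11.7 to 29.9 TPM on the grasses and 132 TPM on Avicel. Locus7081v1rpkm2.71 had its peak on the grasses, while its sister version was highest on cellobiose, at 16 TPM, with 8.13 to 13.4 TPM on the grasses. Locus5229v2rpkm4.65 and Locus5693v1rpkm4.47 had a sister version that also scored above 1, at 1.04 and 1.19, but below the 80. The sister versions of Locus1527v1rpkm47.65 and of Locus823v1, Locus2219v1, Locus591v1 and Locus3976v1rpkm9.23 were at most 4.30 TPM in every median. Locus10566v2 had a median of 6.19 TPM on switchgrass and 0 on reed canary grass, and of the sister versions of Locus4311v3 the first scored 0.93 and the second had no count. With TPM summed over the versions of a locus, 74 of the 80 would be kept.

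Short effective lengths were present among the 80. The ratio of count to TPM gives an effective length relative to the typical transcript of the library, and its median was 0.816 in the 80 against 0.987 in the 5731 transcripts with at least 1 library above 5 TPM. In 7 of the 80 it was below 0.1, against 6.51% of those transcripts. These 7 were Locus15607v1, Locus15981v1, Locus8293v1, Locus15818v1, Locus692v1, Locus8125v1rpkm1.92 and Locus4311v3rpkm0.00_PRE. In them a given count makes a higher TPM than in a longer transcript. Those outside the top 12 are named after their values were seen. Locus8125v1 had H of 601 TPM and L of 228 TPM, but in TMM-scaled CPM the same medians were 11.3 and 10.8. Locus692v1, the most abundant of the 80 in TPM, had 32705 counts over the grass libraries. Over the 80 the counts in the grass libraries ran from 26 to 509143, with a median of 11959, and 4 had under 500.

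In N. californiae the same rule over the same 7 carbon sources found 653 eligible of 29649 transcripts (2.20%), against 5.58% of the A. robustus transcripts. There the 80 highest scores ended at 1.91, and 132 transcripts reached the lowest score kept in A. robustus. Among those 80 the highest other median was on maltose for 37, on Avicel for 25, on glucose for 11 and on cellobiose for 7, beside 63 on cellobiose, 8 on Avicel, 7 on glucose and 1 on maltose in A. robustus, all in TPM. The contrast on cellobiose is not particular to these transcripts. Cellobiose held the highest other median for 18.1% of all eligible N. californiae transcripts and for 85.8% of the eligible A. robustus transcripts of lower score. N. californiae had 2 libraries on switchgrass. The tables of the 2 fungi hold different transcripts and were normalized apart, so the shares stand side by side with no test.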

How the data were processed

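The authors deposited, for A. robustus, expected counts made with RSEM, per the submitters' processing notes, and TPM, each per transcript for 20 libraries. No source used here gives the RSEM version, the aligner, the reference transcripts or any read filter. The deposited TPM sum to 1000000 per library and were used for the choice of transcripts, levels and shares. Members and comparisons were chosen with earlier results of these data known. Expected counts were rounded, filtered (edgeR 4.0.16 in R 4.3.3, filterByExpr with count at least 10 and total at least 15, 10316 transcripts kept), scaled by TMM and fitted by edgeR's quasi-likelihood model to all 20 libraries with 1 mean per carbon source, with p-values adjusted by Benjamini-Hochberg over all tested transcripts. The biological coefficient of variation was 0.388. The SE of a log2 fold change was its absolute value divided by the square root of the quasi-likelihood F statistic, so it restates that test. The method was also run on simulated counts in which some transcripts were changed on cellobiose alone. That setting is simpler than these libraries, so nothing is read from it here. Alternatives used DESeq2 1.42.0, limma 3.58.1, other scalings and filters, the replicate block, the compared groups alone and each library left out. Transcripts named are the 20 highest scores, the 5 highest H, those at the edge of the 80, the called transcripts with the largest change in each comparison, and those with several versions of a locus. A few others, said to be so, were chosen after their values were seen.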

Additional observations from a re-analysis of the deposited data

How the results depend on the processing

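Of the 80 transcripts, the rule would keep 50 with TPM divided by the TMM factor, 46 with TMM-scaled CPM, 58 to 74 under the other changes of the rule, and 53 to 80 with a library left out (53 without corn stover replicate 2). The share of the 80 on grass was 2.02% of TPM, 3.24% of counts and 1.30% of TPM divided by the TMM factor (chosen after seeing the data), and 1.97 to 2.07% of TPM with a library left out. Every grass library lay above every other for 70 to 76 transcripts with a library left out and for 59 to 69 under the other scales. With all libraries in TPM the share over all 17127 transcripts was 5.02%. The shares under the changed settings are not given here, so nothing is read from the changed counts. Called transcripts fitted to the compared groups alone numbered 2 for switchgrass against reed canary grass, 7 for corn stover against switchgrass, 7 for cellobiose against glucose (3 higher, 4 lower) and 1 for Avicel against glucose. Of all transcripts in the last 2 fits, 13.5% were higher and 11.7% lower on cellobiose, and 4.65% higher and 4.29% lower on Avicel. With library size alone they were 14 for maltose, 44 for cellobiose and 5 for Avicel against glucose (0 higher, 5 lower). For maltose 0.116% of all tested transcripts were then higher and 5.55% lower. DESeq2 called 15 for maltose, and limma 52 for cellobiose and 0 for Avicel. Of all tested transcripts limma called 44.1% higher and 1.56% lower for cellobiose, and 2.365% higher and 5.63% lower for Avicel. With a library left out, 0 to 10 were called for maltose, 3 to 53 for cellobiose and 7 to 36 for Avicel against glucose, and 0 in the 3 grass comparisons. The log2 fold change of Locus757v1 on Avicel ran from -4.29 (without glucose replicate 2) to 0.20 (without glucose replicate 3); the causes of these shifts were not tested. Deviations from the group means of same-numbered libraries correlated at -0.257 to 0.319. Differently numbered libraries were not compared in this way, so these values cannot decide whether replicate numbers pair the libraries. The replicate block changed the Avicel count to 7 (6 higher, 1 lower) and the cellobiose count to 20, and left the other 4 counts at 0. Of all tested transcripts it called 9.22% higher and 12.3% lower for Avicel, and 14.7% higher and 6.55% lower for cellobiose. For the 8 called transcripts named with their tests, 173 alternative values kept direction and call, 40 kept direction but lost the call, and 1 reversed. Over all tested transcripts, calls for maltose against glucose went to 691 of 15532 with DESeq2 and 585 of 10316 with library size alone, beside 1 of 10316. For switchgrass against reed canary grass they went to 349 of 9391 with the compared groups alone and 329 of 10316 with limma, beside 0. For corn stover against switchgrass they went to 290 of 10134 and 117 of 10316, beside 1. For cellobiose against glucose limma called 4710 of 10316, beside 2419. For Avicel against glucose the compared groups alone called 654 of 7313, beside 2593 of 10316. Groups of 2 or 3 libraries limit all of these.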
